A study of Danio rerio with 21 samples.

Results

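A set of 81 zebrafish genes had a ventricle signal that was raised at 4 hours post-injury (hpi) and was close to the control level at every later time measured, from 1 to 90 days post-injury (dpi). The genes were chosen from the measured values. Each of 11687 named genes was represented by its brightest feature (a set of probes reporting 1 value), and a gene was kept if its mean log2 signal at 4 hpi exceeded the control mean by 1.5 or more while its means at 1, 3, 7, 14 and 90 dpi each differed from the control mean by less than 0.75. The 81 genes made up 0.693% of the genes measured and 16.1% of the 502 genes raised by 1.5 or more at 4 hpi. Because the rule used every comparison with control hearts, the differences of the 81 genes from control hearts are a description and carry no test.

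The hearts came from adult zebrafish of the TU strain, 10 to 11 months old, whose ventricle was cryoinjured, that is, damaged by freezing part of the wall. Injured ventricles were collected at 4 hpi and at 1, 3, 7, 14 and 90 days, and ventricles of uninjured fish served as controls. Each group had 3 arrays, 21 in all, and each array received the RNA of a pool of 5 ventricles. The labels call the 3 pools of a group biological replicates, and they name no transgene or drug in any group. The control fish are called uninjured in the sample labels, which do not say whether they were opened or handled, so the response to freezing and the response to surgery cannot be told apart. At this early time the ventricle holds dying and surviving heart muscle side by side, and the pool averages the whole organ.

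Injured tissue answers within minutes to hours with a wave of transcription that needs no new protein to start, followed by a wave of genes that brake or shape the response. Many products of such waves are feedback inhibitors and stress proteins, and many of their transcripts decay quickly once the signal ends. Zebrafish carry many genes as a pair of copies named a and b, left from an ancient duplication of the genome of bony fish, and the copies can differ in where and when they are used.

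**Figure D1:**
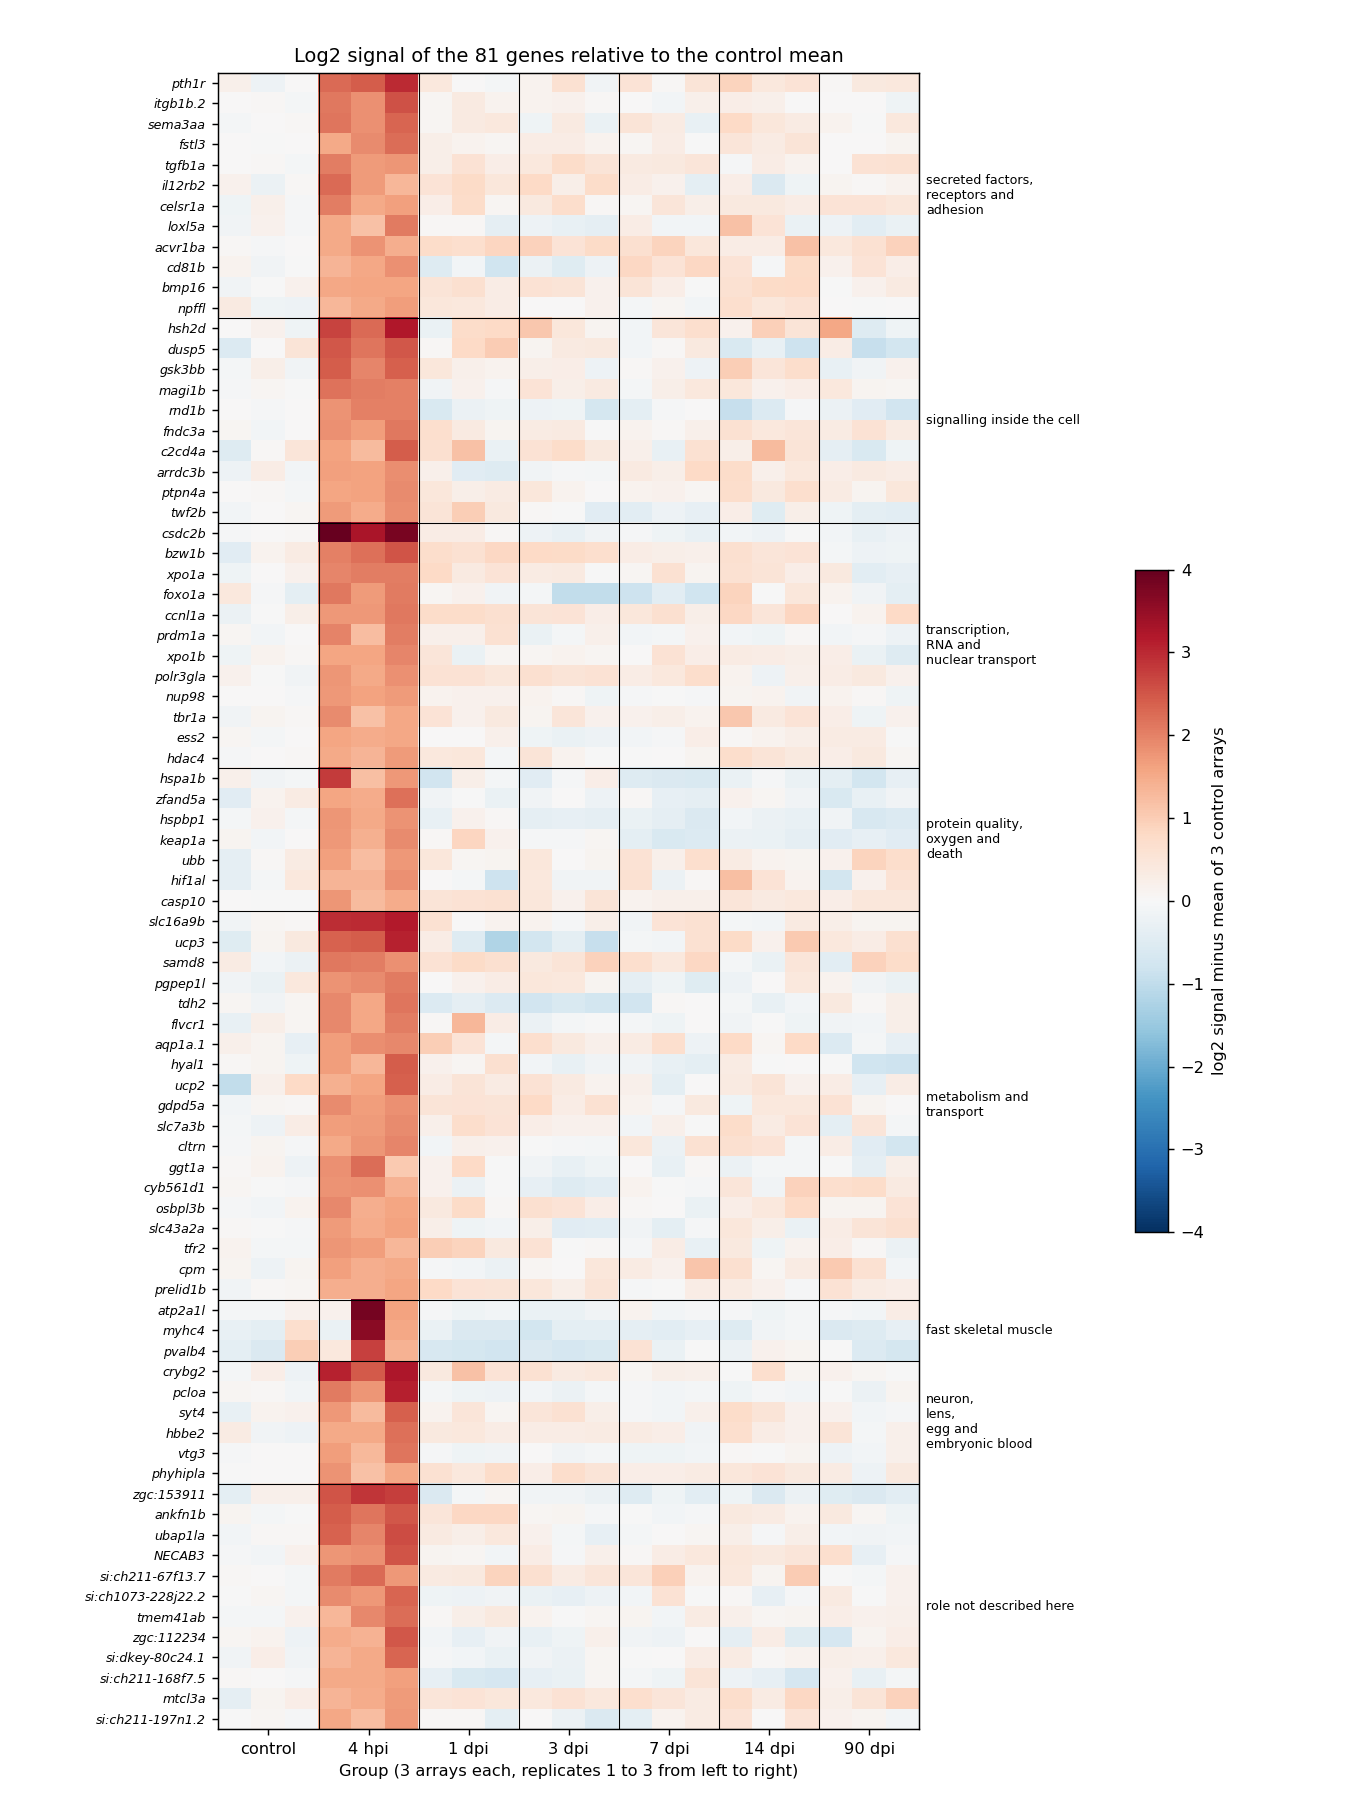
Log2 signal minus the control mean (colour) of the 81 genes (rows, grouped by role) in each of the 21 arrays (columns, 3 per group in order of time, controls at the left). The 3 columns at 4 hpi stand out in 76 of the 81 rows, and the 3 fast skeletal muscle genes are high mainly in the middle column of that group.

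The median gene of the set was 1.76 higher at 4 hpi than in control hearts on the log2 scale, with a range of 1.5 to 3.83, against a median of -0.05 over all 11687 genes. In the 3 pools at 4 hpi the median difference of the set from the control mean was 1.77, 1.67 and 1.94, against -0.05, 0.02 and 0.02 in the 3 control pools. All 3 pools at 4 hpi lay above all 3 control pools for 79 of the 81 genes, as they did for 27.6% of all named genes. For 76 of the 81 the 3 pools at 4 hpi lay above each of the 18 other arrays of the series, a pattern shown by 8.53% of all named genes and by 236 of the 502 genes raised by 1.5 or more. The rule favours this pattern, since it asks for a high mean at 4 hpi and later means near control. Nothing is therefore read from the count of 76. The exceptions were atp2a1l, myhc4 and pvalb4, all genes of fast skeletal muscle, and c2cd4a and loxl5a, each of which had 1 pool at 14 dpi above its lowest pool at 4 hpi. In limma (a linear model with variances shared between features), all 81 were called higher at 4 hpi at an FDR of 0.05, as were 21.3% of all 35783 features tested, and nothing is read from that count because the rule used the same contrast. Within the bounds that the rule set on the later means, limma called 17 of the 81 higher at 1 dpi and 12 at 14 dpi, beside 22.0% and 9.39% of all features.

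After 4 hpi the set stayed close to the control level, as the rule required, but was not centred on it at every time. The median difference was 0.27 at 1 dpi (range -0.70 to 0.75), 0.11 at 3 dpi, 0.09 at 7 dpi, 0.29 at 14 dpi (range -0.57 to 0.73) and 0.06 at 90 dpi. Over all genes the medians at these times lay between 0.03 and 0.06. The set was chosen against these same 3 control pools and all genes were not, so nothing is read from this comparison. At 14 dpi 63 of the 81 genes lay above the control mean and 18 below, whereas at 3 dpi 47 lay above and 34 below. The later time farthest from control was 14 dpi for 26 genes, 1 dpi for 24, 3 dpi for 13, and 7 dpi and 90 dpi for 9 each. For 33 of the 81 no later mean differed from the control mean by as much as 0.5.

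The rises were smaller than those of the other genes raised at this time, but the rule formed both groups from these same values. The comparison is a description only. The 421 genes that were raised by 1.5 or more at 4 hpi but also differed from control later had a median rise of 2.03 and a largest rise of 7.39, against 1.76 and 3.83 in the set. Only 19 of the 81 rose by 2 or more. Among all 502, 361 were still 0.75 or more above control at 1 dpi, 319 at 3 dpi, 250 at 7 dpi, 287 at 14 dpi and 123 at 90 dpi. The set is therefore a minority of the early rises, and its edges are set by the limits of the rule rather than by a gap in the values.

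**Figure D2:**
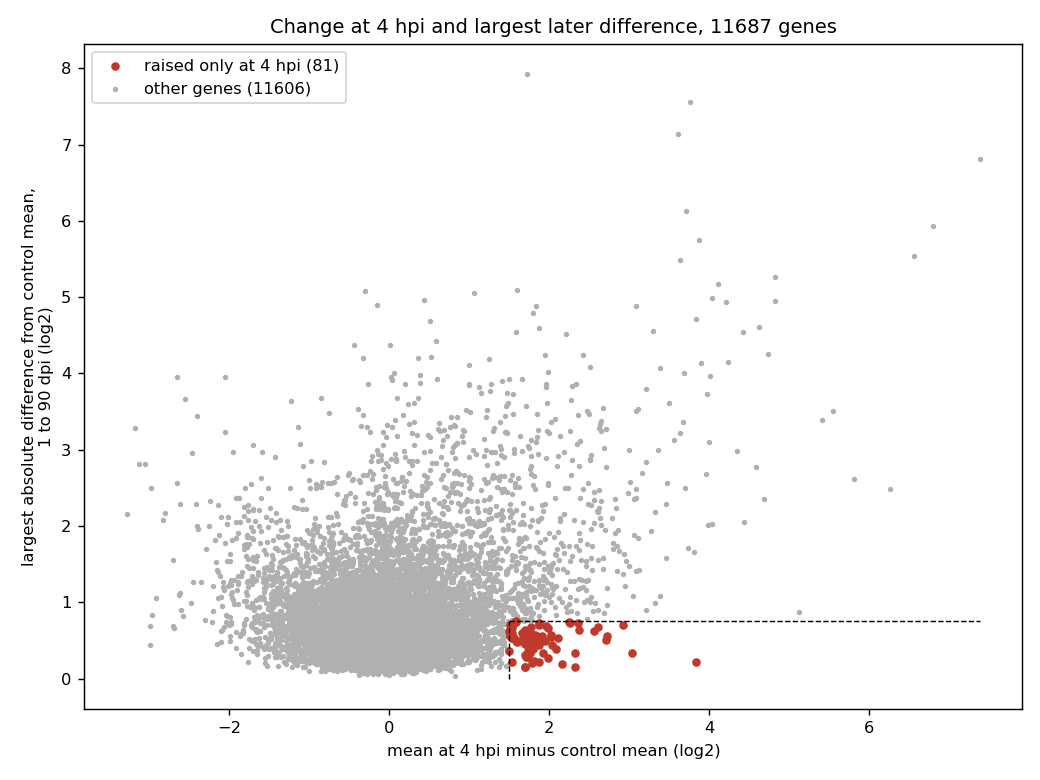
Mean signal at 4 hpi minus control mean (horizontal axis, log2) and largest absolute difference from the control mean at any later time (vertical axis, log2) for 11687 genes. The dashed lines mark the limits of 1.5 and 0.75, and the 81 genes (red) lie in a corner of a continuous cloud with no gap at either limit.

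Just inside the limit on the rise were prelid1b and si:ch211-197n1.2, each at 1.502, and mtcl3a at 1.505. Just outside it were slco1c1 at 1.498, si:dkey-220k22.1 at 1.491 and ptger2b at 1.474. On the later limit acvr1ba, tfr2 and bzw1b were just inside with largest later differences of 0.75, 0.747 and 0.739, and slc17a6b, kcnk1a and rdh10b were just outside with 0.761, 0.764 and 0.764. The genes on either side of each limit thus differed by less than the spread between pools, since the median SD of the 81 genes was 0.253 at 4 hpi and 0.148 in control hearts.

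Many of the genes were dim in control hearts. The median control level of the set was 5.65 on the log2 scale, against 7.34 for all genes, and 30 of the 81 had a control mean below the median of their arrays, which was 5.14 to 5.2. Genes entered only if an array exceeded 6, so a gene dim in all control pools had to be brighter in another group. Many members, in several role groups, passed the filter only because a pool at 4 hpi exceeded 6. The low control levels are thus partly set by the filter and the rule. For these 30 probe background makes up much of the control signal, so the log2 rise may understate the fold. A further 18 genes had a control mean of 8 or more, up to 10.53 for arrdc3b, an arrestin-like protein that takes part in the uptake of membrane receptors. This gene had signals of 12.18, 12.14 and 12.40 at 4 hpi, against 10.34, 10.83 and 10.43 in control hearts. In 4 of the 81 genes another feature of the same symbol exceeded 6 in no array, was not tested and did not share the rise, with differences at 4 hpi of -0.03 for slc16a9b, 0.19 for crybg2, 0.06 for zgc:112234 and 0.125 for pvalb4. Signals of different genes are not compared as amounts, because each feature has its own probes.

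The largest rise belonged to csdc2b, which encodes a cold-shock domain protein that binds RNA. Its signal was 8.97, 7.83 and 8.35 in the 3 pools at 4 hpi, against 4.50, 4.57 and 4.60 in control hearts. The control signal was below the array median, and no other array of the series exceeded 4.86. From 1 to 90 dpi its means stayed within 0.22 of the control mean.

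Among the signalling genes inside the cell, 10 members rose by 1.69 to 2.73. dusp5, a nuclear phosphatase that switches off the ERK kinases, had 10.70, 10.36 and 10.72 at 4 hpi, against 7.69, 8.23 and 8.75 in control hearts. At 1 dpi its mean was still 0.63 above control. hsh2d, an adaptor with an SH2 domain known from human blood cells, had 8.05, 7.61 and 8.55 at 4 hpi, against 5.35, 5.52 and 5.16 in control hearts. A single pool at 90 dpi reached 6.88 for hsh2d, the highest of the 18 other arrays.

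gsk3bb encodes a form of glycogen synthase kinase 3 beta, a kinase that restrains the Wnt pathway and glycogen synthesis. It had 10.27, 9.80 and 10.22 at 4 hpi, against 7.76, 8.06 and 7.68 in control hearts. The pools of the groups did not overlap, and the highest other array was a 14 dpi pool at 8.82. rnd1b, a small GTPase that opposes RhoA and loosens the actin skeleton, had 7.81, 8.04 and 8.03 at 4 hpi, against 6.04, 5.96 and 6.03 in control hearts. Of the other 18 arrays none exceeded 6.045 for rnd1b, which is about the level of the highest control pool. The junction scaffold gene magi1b stood at 9.26, 9.11 and 9.09 at 4 hpi and at 7.02, 7.15 and 7.05 in control hearts. The remaining members of this group were ptpn4a, a tyrosine phosphatase, twf2b, a twinfilin that binds actin monomers, arrdc3b, fndc3a and c2cd4a, with rises of 1.69 to 1.86.

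Transcription, RNA handling and transport between nucleus and cytoplasm held 12 members. All 12 lay above every other array at 4 hpi, but so did 76 of all 81 members and 8.53% of all named genes. The rule favours this pattern, so nothing about the group is read from it. Both zebrafish copies of exportin 1, the receptor that carries many proteins and some RNAs out of the nucleus, were among the 12. xpo1a had 9.85, 9.96 and 9.95 at 4 hpi, against 7.72, 7.92 and 8.06 in control hearts. xpo1b had 9.66, 9.67 and 10.04 at 4 hpi, against 7.89, 8.21 and 8.13 in control hearts. The 2 copies thus rose by 2.02 and 1.71, and they are the only a and b copies of a gene that both met the rule.

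nup98, a mobile component of the nuclear pore, had 9.80, 9.66 and 9.77 at 4 hpi, against 8.08, 8.07 and 8.01 in control hearts. Its later means stayed within 0.15 of control, and its highest other array was at 8.22. bzw1b, which encodes a regulator of the start of translation, had 9.90, 10.09 and 10.42 at 4 hpi, against 7.43, 8.03 and 8.22 in control hearts. This gene came back less completely, with a mean 0.74 above control at 3 dpi.

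foxo1a, a forkhead transcription factor held out of the nucleus by insulin signalling, had 10.56, 10.16 and 10.54 at 4 hpi, against 8.89, 8.43 and 8.07 in control hearts. Its later means lay on both sides of control, at 0.03 above it at 1 dpi, 0.69 below at 7 dpi and 0.44 above at 14 dpi. A second feature of foxo1a rose by 1.94 and had a largest later difference of 0.73, close to the 1.96 and 0.69 of the feature that stood for the gene. The rest of the group rose by 1.53 to 1.87. It comprised ccnl1a, a cyclin of the splicing machinery, prdm1a, a transcriptional repressor, polr3gla, a subunit of RNA polymerase III, hdac4, a deacetylase that restrains Mef2 factors, the T-box gene tbr1a and ess2, a nuclear protein linked to splicing.

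**Figure D3:**
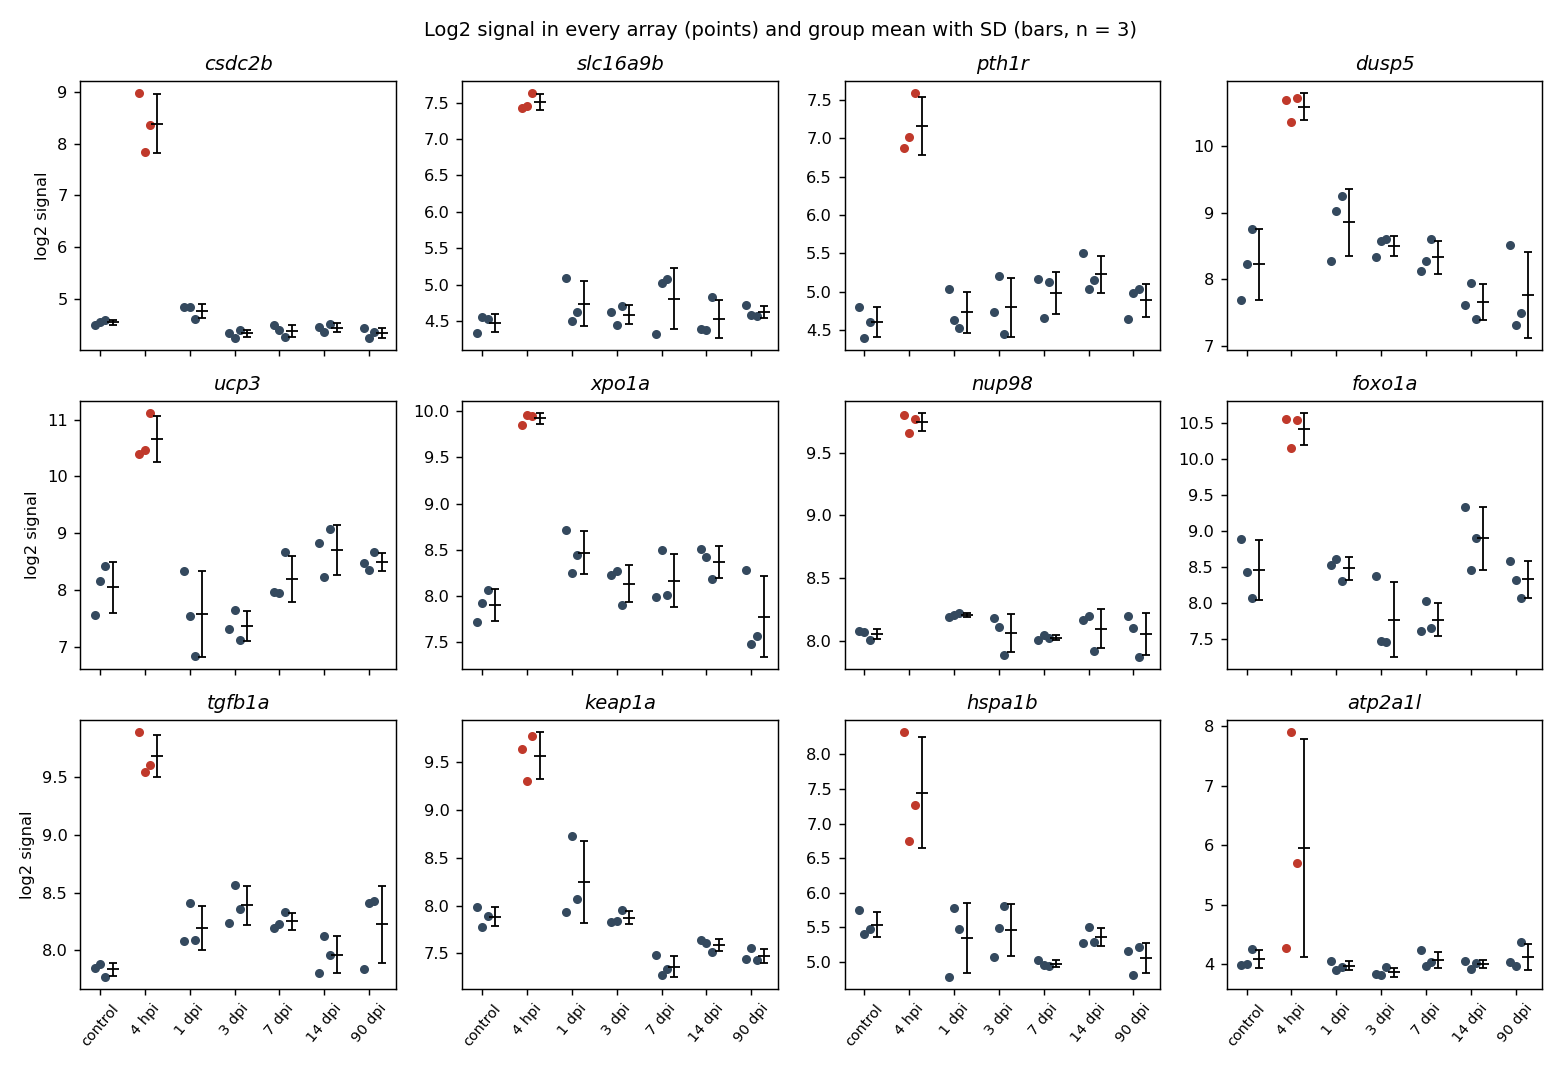
Log2 signal (vertical axes, which differ between panels and do not start at 0) of 12 of the 81 genes in every array, with the group mean and SD (bars, n = 3 pools). The 3 pools at 4 hpi (red) lie above all others in 11 panels, and in the panel of atp2a1l 1 of them, at 4.27, lies just above the controls and below a 90 dpi pool at 4.37.

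The secreted factors, receptors and adhesion molecules numbered 12, with rises of 1.5 to 2.56. The largest was that of pth1r, the receptor of parathyroid hormone and its related protein, which act on bone, kidney and vessel wall. It had 6.87, 7.02 and 7.59 at 4 hpi, against 4.80, 4.40 and 4.61 in control hearts. sema3aa, a secreted guidance factor, had 10.25, 9.92 and 10.44 at 4 hpi, against 8.03, 8.12 and 8.14 in control hearts. itgb1b.2, an integrin beta 1 gene, had 6.30, 6.00 and 6.73 at 4 hpi, against 4.21, 4.23 and 4.11 in control hearts.

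Genes of signalling by the Tgf-beta superfamily formed a part of this group. The ligand gene tgfb1a had 9.89, 9.55 and 9.61 at 4 hpi, against 7.85, 7.88 and 7.77 in control hearts. fstl3, a secreted protein that binds and blocks activins, had 5.65, 6.05 and 6.37 at 4 hpi, against 4.15, 4.12 and 4.18 in control hearts. The type I activin receptor gene acvr1ba had 8.82, 9.11 and 8.77 at 4 hpi, against 7.36, 7.26 and 7.34 in control hearts. These are a Tgf-beta ligand, an inhibitor of activins and an activin receptor, not the parts of a single pathway. Each is a member because its means met the rule. bmp16, a further ligand gene, had 11.36, 11.39 and 11.39 at 4 hpi, against 9.68, 9.81 and 9.98 in control hearts. Of these 4, acvr1ba was the one farthest from control later, at 0.75 above it at 3 dpi. It stayed above control throughout, by 0.75, 0.66, 0.59 and 0.66 at 1, 7, 14 and 90 dpi. Within the bounds of the rule, limma called it higher at 1, 3, 7 and 90 dpi.

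The other members here were il12rb2, a chain of the interleukin 12 receptor, celsr1a, an adhesion receptor of planar cell polarity, the tetraspanin gene cd81b, npffl, a relative of the neuropeptide FF precursor, and loxl5a, of the lysyl oxidase family that crosslinks matrix proteins. Their rises were 1.5 to 1.76. loxl5a had 6.41, 6.09 and 6.97 at 4 hpi, against 4.77, 5.07 and 4.87 in control hearts, and a 14 dpi pool reached 6.09. A second feature of loxl5a rose by 1.27, which is below the limit.

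Protein quality control, oxygen sensing and cell death held 7 members with rises of 1.51 to 1.91. hspa1b, an inducible Hsp70 chaperone, had 8.32, 6.75 and 7.27 at 4 hpi, against 5.74, 5.40 and 5.47 in control hearts. It varied more between the pools at 4 hpi than most members, yet no other array exceeded 5.81. hspbp1, a cofactor that releases nucleotide from Hsp70, had 8.23, 7.99 and 8.27 at 4 hpi, against 6.37, 6.62 and 6.40 in control hearts. The polyubiquitin gene ubb had 12.14, 11.74 and 12.23 at 4 hpi, against 10.15, 10.53 and 10.81 in control hearts. zfand5a, a zinc finger protein that binds ubiquitin and stimulates the proteasome, had 10.05, 9.96 and 10.66 at 4 hpi, against 8.02, 8.59 and 8.78 in control hearts.

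keap1a encodes the adaptor that delivers the antioxidant factor Nrf2 for degradation. Its signal was 9.63, 9.30 and 9.77 at 4 hpi, against 7.98, 7.78 and 7.89 in control hearts, and it was 0.52 below control at 7 dpi. hif1al, a relative of the hypoxia-inducible factors, had 10.54, 10.52 and 10.99 at 4 hpi, against 8.81, 9.10 and 9.60 in control hearts. A 14 dpi pool came close for hif1al, at 10.36. The seventh member was casp10, an initiator caspase, with a rise of 1.51.

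Metabolism and membrane transport made up the largest group, with 19 members. All 19 lay above every other array at 4 hpi, but so did 76 of all 81 members, as the rule favours. Over all named genes the share was 8.53%. slc16a9b, of the monocarboxylate transporter family, had 7.43, 7.45 and 7.63 at 4 hpi, against 4.33, 4.56 and 4.53 in control hearts. Both measured genes for mitochondrial uncoupling proteins 2 and 3, inner membrane carriers linked to fatty acid use in mammals, belonged to the set, and they are adjacent protein-coding genes on chromosome 10. ucp3 had 10.39, 10.47 and 11.12 at 4 hpi, against 7.55, 8.16 and 8.42 in control hearts. ucp2 had 10.00, 10.15 and 10.98 at 4 hpi, against 7.60, 8.77 and 9.36 in control hearts. The order of the pools was the same in both genes, in control hearts as at 4 hpi, and the control pools of ucp2 spanned more than 1 log2 unit.

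Amino acid transporters were represented by slc7a3b, a carrier of arginine and lysine, with 7.47, 7.49 and 7.68 at 4 hpi, against 5.69, 5.59 and 6.07 in control hearts. slc43a2a, a carrier of large neutral amino acids, had 11.61, 11.38 and 11.50 at 4 hpi, against 9.95, 9.89 and 9.87 in control hearts. cltrn, a partner protein of amino acid carriers in the kidney of mammals, rose by 1.74. Enzymes of small molecule metabolism included samd8, of the sphingomyelin synthase family, with 8.53, 8.47 and 8.25 at 4 hpi, against 6.75, 6.33 and 6.21 in control hearts. tdh2, a threonine dehydrogenase gene, had 7.12, 6.74 and 7.33 at 4 hpi, against 5.26, 5.04 and 5.28 in control hearts, and lay 0.71 below control at 3 dpi. pgpep1l, a peptidase gene, had 7.25, 7.33 and 7.53 at 4 hpi, against 5.32, 5.17 and 5.86 in control hearts.

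Iron and heme handling was touched by flvcr1, a heme and choline transporter gene, with a rise of 1.84, and tfr2, a transferrin receptor gene, with a rise of 1.59 and a mean still 0.75 above control at 1 dpi. The hyaluronidase gene hyal1 rose by 1.81 (SD 0.55 between pools at 4 hpi and 0.15 between control pools), and its other feature rose by 2.14 but was 0.82 from control at a later time, which is outside the limit. The others were the water channel gene aqp1a.1, the glutathione-cleaving enzyme gene ggt1a, the lipid-handling genes gdpd5a, osbpl3b and prelid1b, the peptidase gene cpm and cyb561d1, with rises of 1.5 to 1.82.

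A group of 6 genes is better known from other tissues, and all 6 had control means below the array median. For none of them did an array outside 4 hpi exceed 6 on the log2 scale. They thus entered only through the pools at 4 hpi. This is not particular to the 6 genes. It also held for members of other groups, such as csdc2b, slc16a9b, pth1r, fstl3 and hspa1b. Their highest arrays outside 4 hpi were at 4.86, 5.09, 5.50, 4.65 and 5.81. crybg2, of the beta/gamma-crystallin family, had 7.33, 6.72 and 7.5 at 4 hpi, against 4.19, 4.54 and 4.07 in control hearts. pcloa, a giant scaffold of the presynaptic zone of neurons, had 5.93, 5.61 and 6.97 at 4 hpi, against 3.91, 3.90 and 3.73 in control hearts, where no other array exceeded 3.95. pcloa is the next protein-coding gene to sema3aa on chromosome 4. vtg3, a yolk protein gene and the single measured gene of the yolk and oocyte list, had 5.99, 5.63 and 6.46 at 4 hpi, against 4.29, 4.35 and 4.36 in control hearts. hbbe2, an embryonic globin gene, had 5.99, 5.97 and 6.68 at 4 hpi, against 4.81, 4.33 and 4.26 in control hearts. The remaining genes were syt4, a synaptotagmin of vesicle release, and phyhipla, with rises of 1.80 and 1.51. At 4 hpi the signals of these genes lay above the array median, with the highest at 7.5.

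A further 12 members have no role that is described here, and their rises ranged from 1.5 to 2.72. The largest was that of zgc:153911, with 7.89, 8.22 and 8.12 at 4 hpi, against 4.97, 5.56 and 5.55 in control hearts. Its neighbour on chromosome 13, si:ch211-67f13.7, is the adjacent protein-coding gene and also a member, with 6.23, 6.42 and 5.88 at 4 hpi, against 4.22, 4.18 and 4.08 in control hearts. ankfn1b had 7.06, 6.77 and 7.12 at 4 hpi, against 4.73, 4.55 and 4.60 in control hearts. The ubap1la signal was 7.05, 6.64 and 7.30 at 4 hpi and 4.58, 4.72 and 4.73 in control hearts. NECAB3 and si:ch1073-228j22.2 rose by 2.03 and 1.99. The rest were tmem41ab, zgc:112234, si:dkey-80c24.1, si:ch211-168f7.5, mtcl3a and si:ch211-197n1.2. Of these 12, 7 had control means below the array median.

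A small group of 3 members stood apart from the others because their rise came mainly from a single pool. The members were atp2a1l, a calcium pump gene of the sarcoplasmic reticulum, myhc4, a fast myosin heavy chain gene, and pvalb4, a parvalbumin gene of fast muscle. atp2a1l had 4.27, 7.90 and 5.70 at 4 hpi, against 3.99, 4.00 and 4.26 in control hearts. myhc4 had 4.44, 8.30 and 6.23 at 4 hpi, against 4.41, 4.32 and 5.36 in control hearts. pvalb4 had 5.59, 7.89 and 6.56 at 4 hpi, against 4.77, 4.57 and 6.15 in control hearts. In all 3 genes the order of the pools at 4 hpi was the same, pool 2 highest and pool 1 lowest, and for myhc4 and pvalb4 the groups overlapped.

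Of 27 genes on a list of fast skeletal muscle genes written after the data were seen, 12 were measured. A gene counted as measured only if an array exceeded 6. Several of the 12, such as tnnt3b and actn3b, did so only in pool 2 of 4 hpi. The counts and medians of this list are therefore partly set by the filter. Pool 2 was the highest of all 21 arrays for 11 of the 12 genes, the exception being ryr1b. The median of this list was 4.65, 7.21 and 5.52 in the 3 pools at 4 hpi, against 4.48, 4.36 and 5.03 in control hearts, and 4.18 to 4.82 in all other arrays. Among the 9 genes of the list that were not members, limma called 7 higher at 4 hpi and 0 lower, beside 22.8% and 27.0% of all named genes. Without pool 2 of 4 hpi it called 4 higher, without control pool 1 it called 3, without control pool 2 it called 2, and within the 6 arrays of 4 hpi and control hearts alone 1. Trunk muscle lies next to the heart, and the part of RNA from it in the result was not tested. The heart genes myl7 and tnnt2a were at 11.73 to 12.06 and 12.58 to 13.03 over all arrays. A gene listed here as a marker of the atrium and outflow tract, myh6, varied more, at 9.01 to 11.0. Without the 3 skeletal muscle genes the median rise of the set was 1.77.

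**Figure D4:**
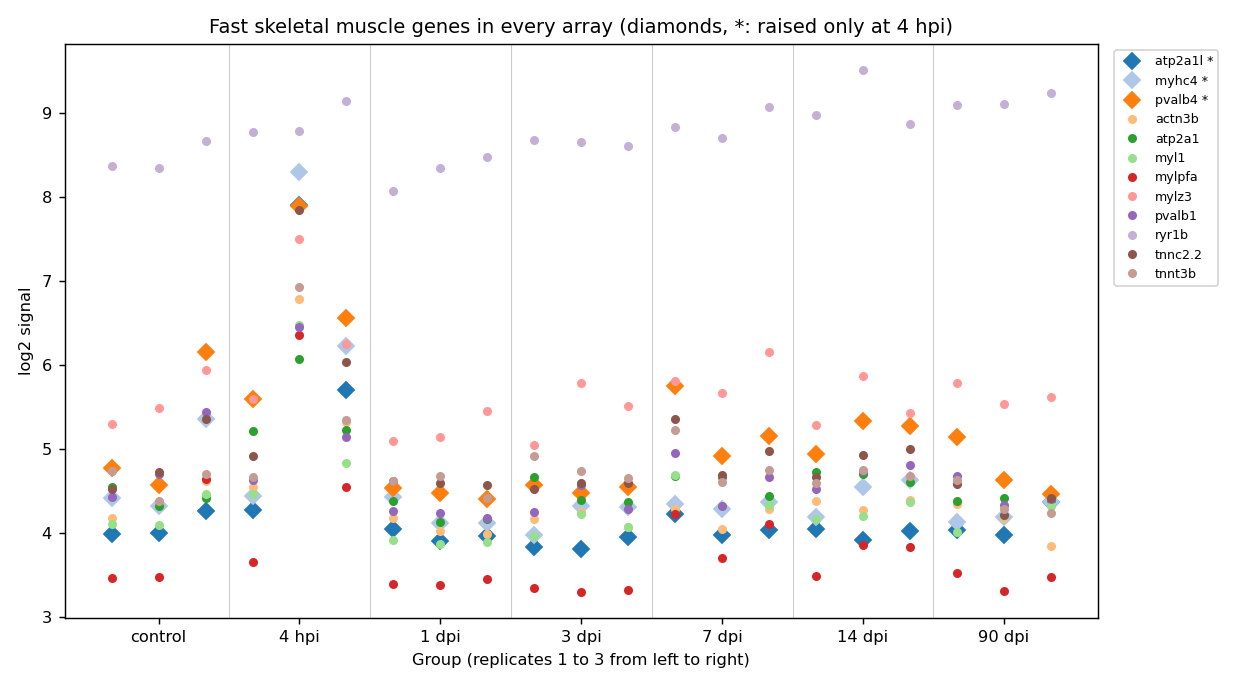
Log2 signal (vertical axis) of 12 fast skeletal muscle genes in each of the 21 arrays (horizontal axis, 3 per group), with diamonds for atp2a1l, myhc4 and pvalb4. Pool 2 of 4 hpi is the highest array for 11 of the 12 genes, and the list median there is 7.21. Several of the genes were measured only because this pool exceeded 6.

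Pool 3 of 4 hpi also differed from the others in this set, in a less marked way. It was the highest of the 3 pools at 4 hpi for 51 of the 81 genes (63.0%) and the lowest for 8. Among the 421 other genes raised at 4 hpi it was the highest for 127 (30.2%) and the lowest for 203. Without pool 3, 63 of the 81 genes still met the rule. The part of this pool in the membership of the others was not tested.

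The rule did not compare a member with its other copy, though it was applied to each copy by itself. Of the 81 genes, 36 carry a name ending in a or b of such a pair, and for 23 the other copy was also measured, including xpo1a and xpo1b for each other. Among the 21 copies that were not members, 10 were called higher at 4 hpi than in control hearts, 5 lower and 6 neither, with a median difference of 0.38. In limma 22.8% of all named genes were called higher and 27.0% lower. Only 5 of the 21 rose by 1.5 or more, and the rule left these 5 out because they differed from control by 0.75 or more later. Of the 10 that were called higher, 8 differed from control by 0.75 or more at some later time, these 5 among them. In 13 of the 21 pairs the member was the dimmer copy in control hearts, though signals of different probes do not measure amounts.

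**Figure D5:**
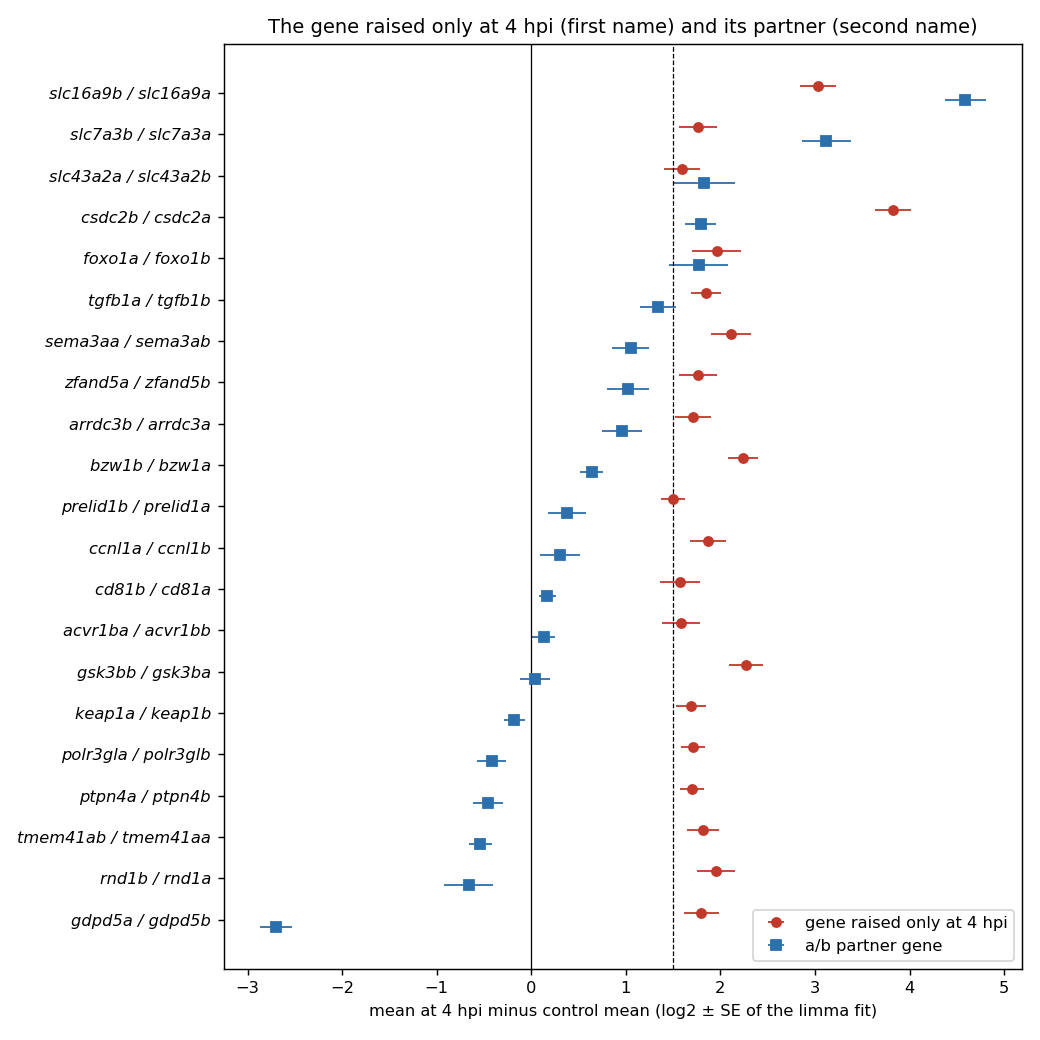
Mean signal at 4 hpi minus control mean (horizontal axis, log2, with the SE of the limma fit) for 21 members (red circles, the name given before the stroke) and their a/b copies that were not members (blue squares). The dashed line marks the limit of 1.5, which 5 of the copies reach, and the copies range from -2.70 for gdpd5b to 4.59 for slc16a9a.

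In some pairs both copies rose and their means differed in the later course. slc16a9a rose by 4.59 ± 0.22 (SE, limma adjusted p = 8.37e-10) at 4 hpi and was still 2.77 ± 0.22 above control at 1 dpi (adjusted p = 4.49e-08), whereas slc16a9b lay within 0.33 of control at every later time. slc7a3a rose by 3.12 ± 0.26 (limma adjusted p = 1.79e-07) and stood 1.22 above control at 1 dpi (adjusted p = 0.0013). slc43a2b rose by 1.83 ± 0.32 at 4 hpi (limma adjusted p = 0.000218) and stood higher still at 1 dpi, 4.89 ± 0.32 above control (adjusted p = 4.76e-09). That these carriers each had a copy with a brief rise and a copy that differed later follows from the rule and is no separate finding. A copy that passed the limit on the rise could be left out only by differing from control later. The same holds for csdc2a and foxo1b. The rule did not set when or how far such copies differed beyond the later limit. tgfb1b rose by 1.34 ± 0.19 (limma adjusted p = 3.19e-05) and was 1.27 above control at 1 dpi, where tgfb1a was within 0.56 of control at all later times. csdc2a rose by 1.79 ± 0.16 (limma adjusted p = 2.77e-07), less than the 3.83 of csdc2b, and lay 1.18 above control at 3 dpi. The copy foxo1b rose by 1.77 ± 0.31 (limma adjusted p = 0.00027) and stood 0.15 below control at 1 dpi and 0.88 above it at 14 dpi. Its difference at 14 dpi was not called (limma adjusted p = 0.0723), nor was that at any other later time.

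In other pairs the copy was not called or was lower. gsk3ba differed from control by 0.04 ± 0.16 at 4 hpi (limma adjusted p = 0.852), beside the rise of 2.27 in gsk3bb. keap1b differed by -0.18 ± 0.11 (limma adjusted p = 0.21), though it was called lower after quantile normalization and after centring of the arrays. acvr1bb differed by 0.13 ± 0.12 (limma adjusted p = 0.434). These 3 copies were measured at control means of 6.59 to 9.55, so they were not dim. ccnl1b, cd81a and prelid1a were likewise not called. gdpd5b fell by 2.70 ± 0.17 at 4 hpi (limma adjusted p = 1.14e-08), opposite to the rise of 1.80 in gdpd5a, and had a control mean of 8.80. tmem41aa fell by 0.54 ± 0.12 (limma adjusted p = 0.00251). The calls of rnd1a, ptpn4b and polr3glb as lower, at adjusted p of 0.0499, 0.0316 and 0.0343 in limma, were each lost when single pools were left out: that of rnd1a without pool 2 or 3 of 4 hpi or any control pool, that of ptpn4b without pool 2 or 3 of 4 hpi or control pool 2 or 3, and that of polr3glb without pool 1 or 3 of 4 hpi or control pool 1 or 2.

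Genes of the same pathways that were not members were counted from 24 lists of early response pathways. Of these lists, 8 held a member and 16 held none, among them the lists of immediate early transcription factors (36 measured), heat shock proteins (33) and ribosome biogenesis (61). Members made up 0.693% of all named genes, so nothing is read from these counts of lists. The names beginning with hsp70 on the heat shock list matched no measured gene, and hspa1b, a member, was not listed there under its own name. Of the 33 measured genes of that list 4 were called higher and 7 lower, with a median difference of -0.08. Of the 61 ribosome biogenesis genes 48 were called higher and 1 lower (median 0.83). Among the 36 immediate early factors 17 were called higher and 1 lower (median 0.61). Over all 24 lists 258 of 588 genes that were not members were called higher at 4 hpi and 87 lower, beside 22.8% and 27.0% of all named genes. The members on these lists were dusp5, foxo1a, hif1al, keap1a, rnd1b, fstl3 and slc7a3b, with foxo1a on 2 of them.

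Around dusp5, the list of MAP kinase phosphatases and feedback inhibitors had 4 of 17 other genes called higher and 1 lower, with a median difference of 0.00. dusp2 rose by 2.00 ± 0.44 (limma adjusted p = 0.00154), and dusp10, which acts on p38 and JNK, fell by 1.56 ± 0.36 (limma adjusted p = 0.0024). The named genes dusp2 and dusp10 thus moved in opposite directions, while 12 of the 17 were not called. Over all named genes 22.8% were called higher and 27.0% lower. Around foxo1a, 12 of 24 glucocorticoid receptor target genes were higher and 4 lower (median 0.91), with glula, a glutamine synthetase gene, at 2.47 ± 0.31 (limma adjusted p = 1.07e-05) and foxo3a falling by 2.00 ± 0.18 (limma adjusted p = 4.14e-07). The list of ubiquitin ligases and growth arrest genes, which also holds foxo1a, had 7 of 22 higher and 3 lower (median 0.21).

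Around hif1al, 11 of 32 hypoxia response genes were higher and 4 lower (median 0.31), beside 22.8% and 27.0% of all named genes. admb, an adrenomedullin gene, rose by 3.37 ± 0.35 (limma adjusted p = 1.52e-06) and pfkfb3, a driver of glycolysis, by 2.65 ± 0.32 (limma adjusted p = 6.5e-06). Both were still raised at 1 dpi, by 2.99 (limma adjusted p = 3.37e-06) and 1.41 (limma adjusted p = 0.00195). As a member, hif1al was not farther than 0.64 from control at any later time. The rule sets this contrast, because admb and pfkfb3 passed the limit on the rise and could be left out only by differing later. Around keap1a, 10 of 20 genes of oxidative stress and Nrf2 were higher and 3 lower (median 0.35), and slc7a11, the cystine carrier gene, rose by 2.22 ± 0.31 (limma adjusted p = 3.07e-05). Around slc7a3b, 14 of 27 genes of polyamine synthesis and amino acid transport were higher and 3 lower (median 0.62). In that list slc7a5 rose by 3.28 ± 0.22 (limma adjusted p = 1.76e-08) and odc1, the entry enzyme of polyamine synthesis, by 3.00 ± 0.37 (limma adjusted p = 7.05e-06).

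Around fstl3, 6 of 17 insulin and growth factor binding proteins and related genes were higher and 3 lower (median 0.44), but with the arrays centred on their median 4 were higher and 6 lower. Over all named genes, as deposited, 22.8% were called higher and 27.0% lower. inhbaa, which encodes an activin subunit that Fstl3 can bind, rose by 1.88 ± 0.20 (limma adjusted p = 2.08e-06), and inhbb, another activin subunit, fell by 3.13 ± 0.40 (limma adjusted p = 1.15e-05). Around rnd1b, 9 of 24 genes of GTPases and the cytoskeleton were higher and 4 lower (median -0.01).

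Some lists were written after the members were known and therefore describe their surroundings only. Their counts stand beside 22.8% of all named genes called higher and 27.0% lower. On the list of nuclear pore and transport genes, which holds xpo1a, xpo1b and nup98, 15 of 57 other genes were higher and 8 lower (median 0.10). Another exportin gene, xpo6, rose by 1.47 ± 0.13 (limma adjusted p = 3.22e-07), just under the limit. On the list of Tgf-beta, activin and Bmp signalling, 13 of 43 were higher and 8 lower (median 0.04), and 13 and 14 with the arrays centred. On the list of ubiquitin, proteasome and Zfand genes, which holds ubb and zfand5a, 3 of 42 were higher and 2 lower (median 0.05), and 3 and 7 with the arrays centred. On the list of mitochondrial uncoupling and fuel switch genes, which holds ucp2 and ucp3, 4 of 17 were higher and 6 lower (median -0.23).

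Marker transcripts of several cell types of heart and blood also differed from control hearts at 4 hpi, and none of the 81 genes was on one of these lists. The median signal of 13 neutrophil markers was 7.25 to 8.03 in the pools at 4 hpi, against 4.85 to 5.02 in control pools, with 11 of the 13 called higher by limma, and it was 7.73 to 7.98 at 1 dpi. Of 14 pan-leukocyte markers 11 were higher, with list medians of 7.31 to 8.28 at 4 hpi, against 6.14 to 6.25 in control hearts, and 8.98 to 9.65 at 1 dpi. Of 15 macrophage markers 8 were higher, and of 8 thrombocyte markers 6. Over all named genes 22.8% were called higher. A marker counted as measured only if an array exceeded 6, as for 13 of 17 listed neutrophil, 14 of 20 pan-leukocyte and 15 of 20 macrophage markers. Control medians were below 6 for the neutrophil list and for the macrophage list (5.51 to 5.87). Markers dim in control hearts thus had to be brighter in an injured group, and these counts and medians are partly set by the filter. Of 22 cardiomyocyte markers 10 were lower and 1 higher, with list medians of 11.56 to 11.70 at 4 hpi, against 11.68 to 11.86 in control hearts. Of the endothelial and endocardial markers 7 of 18 were lower, of the epicardial and fibroblast markers 6 of 15, beside 27.0% of all named genes. In the same lists 1 endothelial and 2 epicardial or fibroblast markers were higher. Of 14 erythrocyte markers 1 was higher and 2 lower, and of 8 markers of the atrium and outflow tract 2 were higher and 1 lower. In RNA of whole ventricles fewer cells of a type and less RNA per cell cannot be told apart, and the part of the cell makeup in the rises of the 81 genes was not tested.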

How the data were processed

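Total RNA of 21 pools of 5 zebrafish ventricles (7 groups of 3) was measured on Affymetrix Zebrafish Gene 1.0 ST arrays. The authors normalized the scans with RMA, corrected for probe GC content, in Partek Genomics Suite 6.5, and the deposited log2 values were used as given. The genome build is not given in the sources used here. Array files before normalization were not used here.

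Gene names came from the platform annotation. Of 75212 features, 35783 were kept for testing because any array was above 6 on the log2 scale: 12313 with a single symbol, 494 with several and 22976 with none. The brightest feature stood for each of 11687 genes, and 7 members had another feature, of which 3 were tested. Gene IDs of 80 of the 81 members matched the RefSeq annotation of assembly GRCz12tu (79 protein coding), which was used for neighbouring genes only.

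Each time was compared with control hearts in a single limma 3.58.1 model of the 7 groups in R 4.3.3 (14 residual degrees of freedom), with Benjamini-Hochberg adjustment over all tested features and calls at an adjusted p under 0.05. The model was tested on simulated data. An exact test of 3 pools against 3 cannot go below p = 0.1, and the number of arrays limits the precision. Python 3.11.15 with matplotlib 3.10.9 drew the figures.

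The members and the lists were chosen with earlier results of these data known, and 6 lists, the role groups and some alternatives were added after the values were seen. Genes were named by rule: the 24 members with the largest rise, members on a list, those at the limits or with another tested feature, and from each list with a member up to 3 others with the largest change. The a/b copies and the remaining members are named outside that rule, to account for all. Alternatives covered scaling, signal filter, feature choice, group medians, variance model, arrays fitted, replicate block, limits and leaving out each array. Same-group arrays correlated at 0.952 to 0.977 and arrays of different groups at 0.844 to 0.969.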

Additional observations from a re-analysis of the deposited data

Results flagged for a closer look

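Features that carry no gene symbol were left out of the set, but the rule was also applied to them. Of 22976 such features tested, 111 (0.483%) met the rule, and for 107 of them all 3 pools at 4 hpi lay above the 18 other arrays. The rule favours this pattern, which 8.53% of all named genes showed, and its share over all features was not counted. The median rise of the 111 was 1.74 and the largest 3.26. The median signal over the 111 was 7.60, 7.47 and 7.93 in the pools at 4 hpi, against 5.81, 5.78 and 5.82 in control hearts, and pool 3 was again the highest. A further 5 features with several symbols met the rule.

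The median signal of the fast skeletal muscle genes in pool 2 of 4 hpi was 7.21, which drew attention because no control pool exceeded 5.03 and these genes are outside the main measurement of the heart. Several of these genes exceeded 6 only in that pool and were measured for that reason. Groups of 3 are too small for a test of single outlying pools, so none was made.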

How the results depend on the processing

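The number of members depended mainly on the limits. With a rise of 1.0 or more 261 genes met the rule, with 2.0 or more 19, with a later difference under 0.5 there were 33 and under 1.0 there were 131. Leaving out each array in turn gave 69 (without pool 3 of 4 hpi) to 97 (without pool 2 of 4 hpi) members. The genes of the reported set, whether or not they still met the rule, then had a median rise of 1.70 to 1.86. Without each pool of 4 hpi in turn 76 to 79 genes of the reported set lay above every other array. In the fit, leaving out each pool of 4 hpi and control hearts gave 6445 to 6799 features higher and 5241 to 5781 lower at 4 hpi, and 232 to 242 list genes higher.

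Scaling mattered for the balance of calls. The median difference of all tested features at 4 hpi was 0.05 as deposited, -0.04 after quantile normalization and -0.08 with arrays centred on their median. As deposited 7636 features were higher and 6270 lower, after quantile normalization 6316 and 7949, and after centring 5812 and 8645. Quantile normalization gave 74 members (65 shared with the 81) and centring 74 (58 shared). Group medians in place of means gave 70 (58 shared). A signal above 7 left 62, all of them in the set. Neither scaling reversed a call among the 21 a/b copies, and keap1b became lower under both. Leaving out single pools of 4 hpi or control hearts gave 10 to 11 copies higher and 2 to 4 lower, with cd81a called higher without pool 3 of 4 hpi, and no call was reversed. Fitted on the 6 arrays of 4 hpi and control hearts alone, 10 copies were higher and 3 lower. The alternatives for the copies and the skeletal muscle genes were chosen after seeing the data.

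Replicate numbers are shared between the groups, but at 4 hpi and in control hearts same-numbered pools did not deviate together in all pairs, with correlations of their deviations of -0.03, -0.03 and 0.18. Over all 63 pairs of pools these ran from -0.15 to 0.20 and 13 exceeded 0.1, and the groups at 3 dpi and 1 dpi were the ones in which all 3 pairs did, at 0.11, 0.14 and 0.15. With the replicate block 80 genes were members, and the median rise of the reported set was 1.76. With that block 7620 features were higher and 6280 lower, 259 list genes were higher, and of the a/b copies only rnd1a lost its call.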
